A study of Mus musculus with 8 samples.

Results

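Igf1r, Lmo2, Nlrp3, Sp3 and Rasa1 are mouse genes reported elsewhere to be repressed by the microRNA miR-223. They were found as the probe sets whose symbol in the authors' deposited gene list equals one of these names. Each of the 5 genes had 1 probe set, out of 28853 probe sets on the arrays and 1264 in that list. The study measured RNA on 8 Affymetrix Mouse Gene 1.0 ST arrays of C57/BL6 bone marrow cells, 2 arrays in each of 4 groups. KO_starmut, KO_223mut and KO_MIG cells came from mir-223-/- mice and WT_MIG cells from wild-type mice. Cells of all groups were stimulated for 2 days, given Hoxa9 and Meis1, transcription factors linked to leukaemia, on MSCV retroviral vectors by co-culture with irradiated virus producers, sorted for YFP and kept in neomycin at 1.4 mg/ml. The labels give no age or sex and do not spell out what MIG, mut and starmut stand for. The deposited gene list writes the last with a star sign, and the group names KO_MIG, KO_223mut and KO_starmut are read here as an empty vector, a miR-223 vector with an altered guide strand and one with an altered passenger (star) strand. On that reading the guide strand is present in KO_starmut and WT_MIG cells, and the passenger strand in KO_223mut and WT_MIG cells. Each array measured a bulk culture, in which the signal cannot tell fewer cells of a type from less RNA per cell.

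A microRNA hairpin is cut into a pair of strands. The strand loaded into an Argonaute protein, the guide, pairs through its seed (bases 2 to 8) with messenger RNAs, mostly in their 3′ untranslated regions, and lowers their stability and translation. miR-223 is abundant in granulocytes and monocytes and is known as a brake on granulocyte production and on inflammation. Loss of a microRNA is known to raise the messenger RNA of direct targets, usually by a modest factor.

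The hairpin and its strands are shown because the groups differ in them. In RefSeq (GRCm38.p6) the hairpin lies at chrX:96242817-96242926 on the plus strand and has 110 bases. The capitals in it mark the passenger strand at bases 26 to 48 and the guide strand at bases 68 to 89. In the mature strands the capitals mark the seed.
miR-223 hairpin: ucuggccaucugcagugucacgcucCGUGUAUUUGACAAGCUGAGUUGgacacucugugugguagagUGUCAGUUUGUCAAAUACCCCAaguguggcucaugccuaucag
mmu-miR-223-3p (guide): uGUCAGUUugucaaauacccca
mmu-miR-223-5p (passenger): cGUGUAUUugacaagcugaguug
The guide seed pairs with AACUGAC in a target and the passenger seed with AAUACAC, so the strands address different sites. The seeds hold the same base at 4 of 7 positions. Among 1679 mature mouse miRNAs in the RefSeq table, 0 others share the guide seed and 0 others share the passenger seed. Target sites in the 5 messenger RNAs are not analysed here, since no transcript sequence was used.

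All values are log2 signals from which the median of each probe set over the 8 arrays had been subtracted, so 0 is that gene's own median and levels of different genes cannot be set against each other. Array medians lay between -0.0126 and 0.0109, and replicate arrays of a group had an SD of 0.118 to 0.131 over all probe sets. The probe set listed under F630028O10Rik and Mir223 read between -0.078 and 0.15 in the 6 knockout arrays, against -0.98 and -1.07 in the WT_MIG arrays. It was thus higher in the arrays labelled knockout; where its probes sit relative to the deletion is not known here, and directions below rest on the labels. The series calls the arrays biological replicates without saying what was replicated, and a p-value reflects no more than the spread among these arrays. A difference is called where the limma adjusted p over all 28853 probe sets is under 0.05. The symbols come only from the authors' list, which holds probe sets that differed over these same 4 groups in a one-way analysis of variance (uncorrected p under 0.05). Per the authors' deposited table that p was 0.0335 for Nlrp3, 0.0342 for Sp3, 0.0416 for Rasa1, 0.0433 for Igf1r and 0.0448 for Lmo2, so that all 5 entered in the upper part of the range the list allows. Some difference between groups was therefore a condition for a name, and the tests below are not independent of it.

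Of the 5 genes, 1 had a called difference. Nlrp3 read 1.74-fold lower in KO_223mut than in WT_MIG cells, a comparison in which 0.721% of all probe sets were called. That call was not kept in all alternative fits, as given below. Igf1r and Lmo2 had their highest group means in KO_MIG cells and their lowest in WT_MIG cells, with differences of 0.46 and 0.41 that were not called. Sp3 and Rasa1 spanned a narrow range and no difference of theirs was called.

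**Figure D1:**
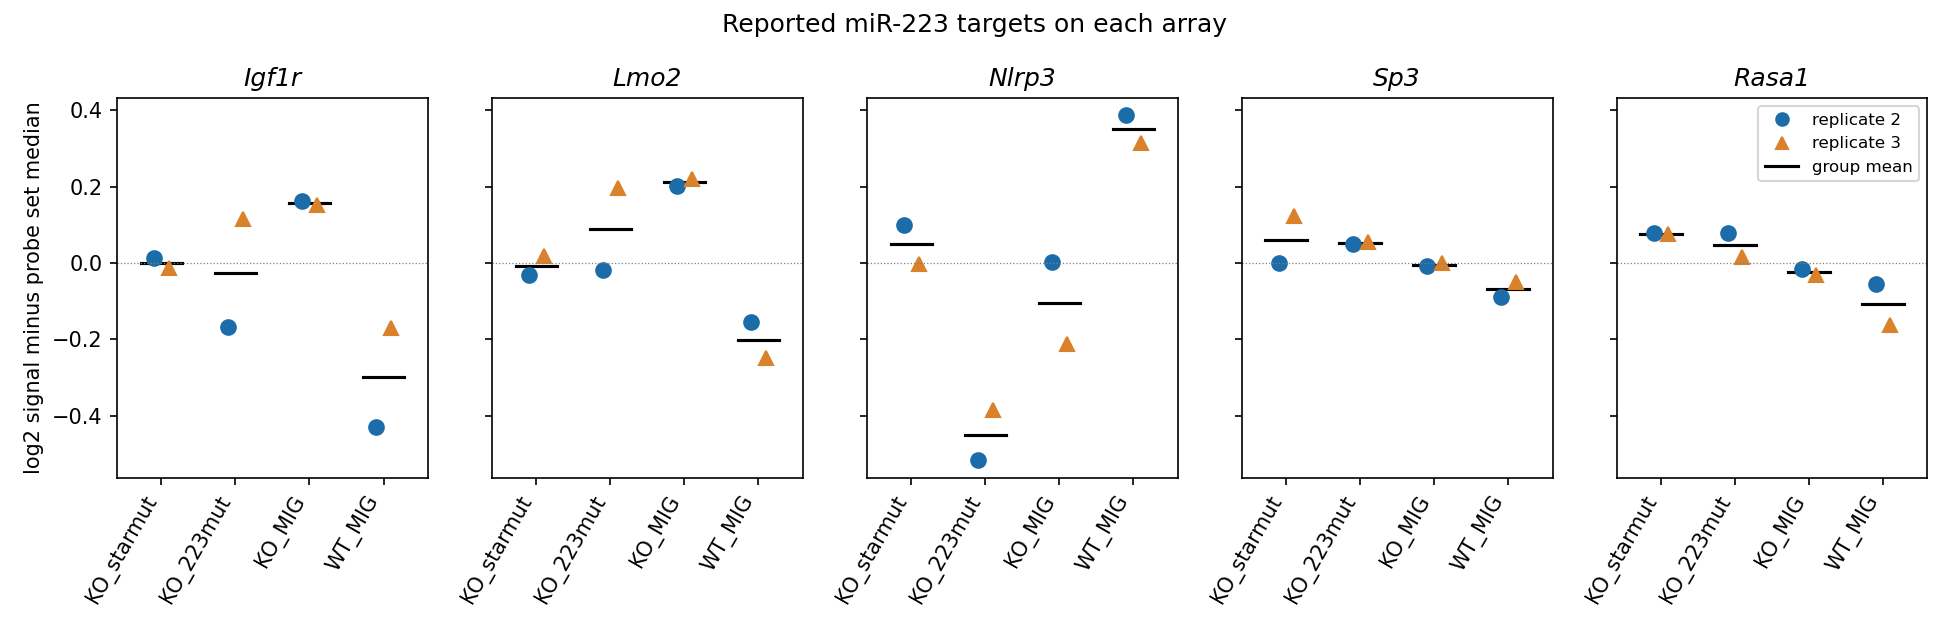
Log2 signal minus the probe set's median (vertical axis) for each gene on every array, by group; circles are replicate 2, triangles replicate 3 and bars the means of 2 arrays. The WT_MIG arrays of Nlrp3 (0.39 and 0.32) lie above all 6 knockout arrays, and those of the other genes lie below them, for Igf1r by a margin too narrow to see.

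Nlrp3 encodes the sensor of the inflammasome that activates caspase-1 and interleukin 1 beta in myeloid cells. Its arrays read 0.10 and -0.0022 in KO_starmut, -0.52 and -0.39 in KO_223mut, 0.0022 and -0.21 in KO_MIG, and 0.39 and 0.32 in WT_MIG. Both WT_MIG arrays were the highest of the 8 and both KO_223mut arrays the lowest, while KO_starmut and KO_MIG overlapped between them. KO_223mut minus WT_MIG was -0.80 ± 0.09 (log2, SE, 2 arrays per group, 95% interval -1.02 to -0.59, limma adjusted p = 0.00955), lower in both same-numbered array pairs. In that comparison 208 probe sets were called, 0.721% of all (732 with the replicate number as a block, where Nlrp3 had an adjusted p of 0.00449), and a larger absolute difference was found for 0.558% of probe sets. The call rested on all 4 arrays compared: leaving out KO_223mut replicate 2 gave an adjusted p of 0.088, KO_223mut replicate 3 gave 0.0573, WT_MIG replicate 2 gave 0.0951 and WT_MIG replicate 3 gave 0.0542 (limma), with differences of -0.87 to -0.74. Without variance moderation the adjusted p was 0.198. The cause of the lower Nlrp3 reading in KO_223mut arrays was not tested.

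Against WT_MIG the other knockout arms of Nlrp3 gave smaller values in the same direction. KO_MIG minus WT_MIG was -0.46 ± 0.09 (SE, adjusted p = 0.18) and KO_starmut minus WT_MIG was -0.30 ± 0.09 (adjusted p = 0.343), neither called by limma. Among knockout cells, KO_223mut minus KO_MIG was -0.35 ± 0.09 (adjusted p = 1) and KO_starmut minus KO_MIG was 0.15 ± 0.09 (adjusted p = 1). The vectors differed from each other by 0.50 ± 0.09 (KO_starmut minus KO_223mut, 95% interval 0.28 to 0.72). The unadjusted p of that difference was the lowest among the 5 genes and only 0.0832% of all probe sets had a lower one, yet its limma adjusted p was 0.887, in a comparison with 0 calls over all probe sets. In order of level Nlrp3 ran WT_MIG, KO_starmut, KO_MIG, KO_223mut, and no neighbours in that order differed by a called amount.

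Markers of mature myeloid cells followed the same order at its ends. Itgam, the integrin CD11b of granulocytes and macrophages, read -0.51 and -0.59 in KO_223mut arrays, against 0.71 and 0.48 in WT_MIG arrays. It was lower in KO_223mut than in WT_MIG by 1.15 on the log2 scale (limma adjusted p = 0.00659). Itgam was also lower than in WT_MIG in KO_MIG (-0.59) and KO_starmut (-0.68), neither called (limma adjusted p = 0.126 and 0.0598). Cd68, a lysosomal glycoprotein of macrophages, read -0.21 and -0.17 in KO_223mut arrays, against 0.31 and 0.28 in WT_MIG arrays. That was a called difference of -0.48 ± 0.07 (SE, limma adjusted p = 0.0252). In KO_MIG and KO_starmut Cd68 differed from WT_MIG by -0.32 and -0.27, neither called (limma adjusted p = 0.199 and 0.203). These are the named members of the neutrophil list (1 of 13 genes) and of the macrophage and monocyte list (1 of 10), and other members are unnamed here. Summed marker levels cannot be given on centred values. The part of such markers in the Nlrp3 result was not tested.

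Other genes of the inflammasome pathway were named in the authors' list for 4 of 18 genes, Nlrp3 included. In KO_223mut against WT_MIG 1 of the 4 was called, Nlrp3, which was lower (0.721% of all probe sets were called). Nek7, a kinase that binds NLRP3 for its activation, differed by 0.28 ± 0.08 (SE) in that comparison, the cytosolic DNA sensor Aim2 by -0.13 ± 0.09 and the interleukin 1 receptor Il1r1 by -0.08 ± 0.11, with limma adjusted p-values of 0.266, 0.773 and 0.921. In KO_starmut against WT_MIG the same genes gave 0.34 for Nek7, -0.31 for Aim2 and -0.35 for Il1r1, and 0 of the 4 were called by limma (0.246% of all probe sets). The lower reading in KO_223mut arrays was thus called for the sensor and not for the other 3 named genes, and the difference between genes was not tested.

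Igf1r encodes the receptor tyrosine kinase for insulin-like growth factor 1, which signals growth and survival through the PI3K and AKT kinases. Its arrays read 0.013 and -0.013 in KO_starmut, -0.17 and 0.12 in KO_223mut, 0.16 and 0.15 in KO_MIG, and -0.43 and -0.17 in WT_MIG. The lowest knockout array, at -0.167, and the highest WT_MIG array, at -0.169, almost touched. KO_MIG minus WT_MIG was 0.46 (95% interval 0.19 to 0.72), KO_starmut minus WT_MIG was 0.30 ± 0.11 (SE, adjusted p = 0.502) and KO_223mut minus WT_MIG was 0.27 ± 0.11 (adjusted p = 0.499), none of them called by limma. Relative to KO_MIG, both vectors gave lower values, -0.16 ± 0.11 for KO_starmut and -0.18 ± 0.11 for KO_223mut (SE), with 95% intervals of -0.42 to 0.11 and -0.45 to 0.08. The vectors differed from each other by 0.03 ± 0.11 (KO_starmut minus KO_223mut), an interval of -0.24 to 0.29. Igf1r thus ran KO_MIG, KO_starmut, KO_223mut, WT_MIG from high to low, and no neighbouring groups differed by a called amount. It had the widest spread between replicates of the 5 genes, a residual SD of 0.136 against a median of 0.0891 over all probe sets. Leaving out 1 array moved some of its uncalled values by more than 1.5 times, while KO_MIG minus WT_MIG stayed between 0.327 and 0.586. Without WT_MIG replicate 2, KO_starmut minus WT_MIG was 0.17 and KO_223mut minus WT_MIG was 0.14. Without KO_223mut replicate 3, KO_223mut minus WT_MIG was 0.13, and without KO_223mut replicate 2, KO_223mut minus KO_MIG was -0.04.

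Of 33 genes of insulin-like growth factor signalling 2 were named, Igf1r and the ribosomal S6 kinase Rps6kb1, which acts downstream of mTOR. Rps6kb1 minus its WT_MIG level was 0.25 ± 0.08 in KO_starmut, 0.14 ± 0.08 in KO_223mut and 0.14 ± 0.08 in KO_MIG (log2 difference, SE). By limma 0 of the 2 genes were called in any of the 8 comparisons, in which 0% to 0.721% of all probe sets were called.

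Lmo2 encodes a LIM-only adaptor that joins TAL1, LDB1 and GATA factors in blood stem and progenitor cells. Its arrays read -0.031 and 0.018 in KO_starmut, -0.018 and 0.20 in KO_223mut, 0.20 and 0.22 in KO_MIG, and -0.16 and -0.25 in WT_MIG. All 6 knockout arrays were above both WT_MIG arrays. KO_MIG minus WT_MIG was 0.41 (95% interval 0.22 to 0.61), KO_223mut minus WT_MIG 0.29 ± 0.09 (SE, adjusted p = 0.269) and KO_starmut minus WT_MIG 0.20 ± 0.09 (adjusted p = 0.592), none called by limma. KO_starmut minus KO_MIG was -0.22 ± 0.09 and KO_223mut minus KO_MIG was -0.12 ± 0.09 (SE), with 95% intervals of -0.42 to -0.02 and -0.32 to 0.08 and adjusted p-values of 1 in both. Without KO_223mut replicate 3, KO_223mut minus WT_MIG was 0.18, and without KO_223mut replicate 2, KO_223mut minus KO_MIG was -0.02. From high to low the order was KO_MIG, KO_223mut, KO_starmut, WT_MIG, again without a called difference between neighbours. In the list of the LMO2 complex and stem cell transcription factors 2 of 20 genes were named. The other, the homeobox gene Hoxa10, gave -0.01 ± 0.07 in KO_starmut, 0.14 ± 0.07 in KO_223mut and 0.10 ± 0.07 in KO_MIG relative to WT_MIG (log2 difference, SE). By limma 0 of both genes were called in these comparisons, in which 0.135% to 0.721% of all probe sets were called.

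Sp3 encodes a zinc finger factor that binds GC boxes alongside Sp1. Its arrays read -0.00032 and 0.12 in KO_starmut, 0.051 and 0.055 in KO_223mut, -0.0081 and 0.00032 in KO_MIG, and -0.089 and -0.048 in WT_MIG. The WT_MIG arrays were the lowest, by a small margin. The differences from WT_MIG were 0.13 ± 0.07 in KO_starmut, 0.12 ± 0.07 in KO_223mut and 0.06 ± 0.07 in KO_MIG (SE, limma adjusted p = 0.699, 0.663 and 1), with 95% intervals that all include 0. Of 21 Sp and Kruppel-like factors 2 were named, and the other, Sp2, differed from WT_MIG by -0.09 in KO_starmut, 0.06 in KO_223mut and 0.00 in KO_MIG.

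Rasa1 encodes p120 RasGAP, which speeds GTP hydrolysis by Ras and so switches it off. Its arrays read 0.080 and 0.075 in KO_starmut, 0.078 and 0.015 in KO_223mut, -0.015 and -0.030 in KO_MIG, and -0.055 and -0.16 in WT_MIG. The groups ran downward in that order, with KO_starmut and KO_223mut overlapping. The differences from WT_MIG were 0.19 ± 0.07 in KO_starmut (SE, adjusted p = 0.462), 0.15 ± 0.07 in KO_223mut (adjusted p = 0.529) and 0.09 ± 0.07 in KO_MIG (adjusted p = 1), none called by limma. It was the single named gene among 24 Ras GTPases and regulators. Sp3 and Rasa1 had residual SDs of 0.046 and 0.0444, below the median of all probe sets.

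**Figure D2:**
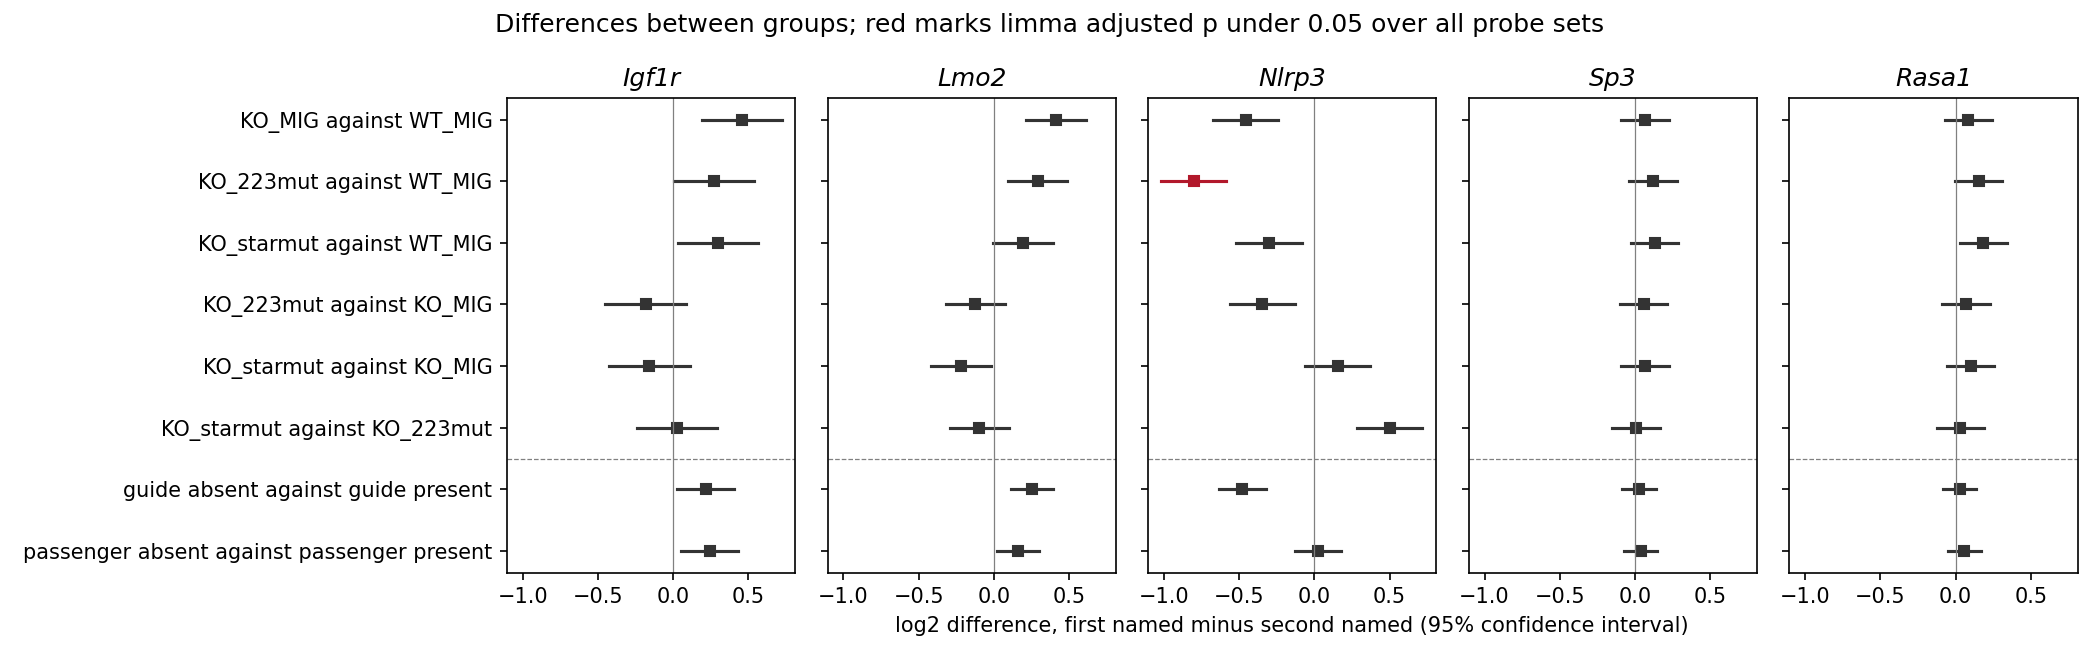
Log2 differences (squares) with 95% confidence intervals (lines) from limma for each gene, first named group minus second named group, in 6 pairwise comparisons (above the dashed line) and the 2 comparisons by strand (below it). Nlrp3 in KO_223mut against WT_MIG (-0.80), in red, is the one with an adjusted p under 0.05.

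Read against all probe sets, the arrays of all 5 genes separated every knockout group from WT_MIG, and the arrays of 10.8% of all probe sets put the 6 knockout arrays on one side of both WT_MIG arrays. For single comparisons the groups did not overlap in 5 of 5 genes in KO_MIG against WT_MIG (30.3% of all probe sets), in KO_223mut against WT_MIG (35.7%), in KO_starmut against WT_MIG (36.8%) and in KO_223mut against KO_MIG (28.6%). The count was 3 of 5 in KO_starmut against KO_MIG (30.6%) and 1 of 5, Nlrp3, in KO_starmut against KO_223mut (32.1%). Because a difference between these groups was a condition for a name, nothing is read from these counts. The same holds for the counts under an unadjusted p of 0.05 that follow, those by strand included. Called genes were 1 of 5 in KO_223mut against WT_MIG (0.721% of all probe sets, with 3 of 5 under an unadjusted p of 0.05, against 9.68%), 0 of 5 in KO_MIG against WT_MIG (0.135% of all probe sets, with 3 of 5 unadjusted, against 5.58%) and 0 of 5 in KO_starmut against WT_MIG (0.246%, with 3 of 5 unadjusted, against 8.56%). With the replicate number as a block, limma still called 0 of 5 in KO_MIG and in KO_starmut against WT_MIG, with 277 and 488 probe sets called over all, against 39 and 71 without it. Called genes were 0 of 5 in each comparison among knockout arms, where limma called 0 of all probe sets (0%; 1 with the block, in KO_starmut against KO_223mut). There 1 of 5 genes had an unadjusted p under 0.05 in KO_223mut against KO_MIG (Nlrp3, against 4.06% of all probe sets), in KO_starmut against KO_MIG (Lmo2, against 4.2%) and in KO_starmut against KO_223mut (Nlrp3, against 4.71%).

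The median difference of the 5 genes from WT_MIG was 0.19 in KO_starmut, 0.15 in KO_223mut and 0.09 in KO_MIG, beside -0.01, 0.02 and 0.01 over all probe sets. Over the probe sets with a single symbol in the authors' list, selected as the 5 were, it was -0.01, 0.03 and 0.03. In each of the 3 comparisons 4 of the 5 genes were higher than in WT_MIG and 1, Nlrp3, was lower. These comparisons share the WT_MIG arrays. The 5 come from a list of 32 reported targets, of which the other genes are unnamed here, so the medians describe these genes and not the targets of miR-223.

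**Figure D3:**
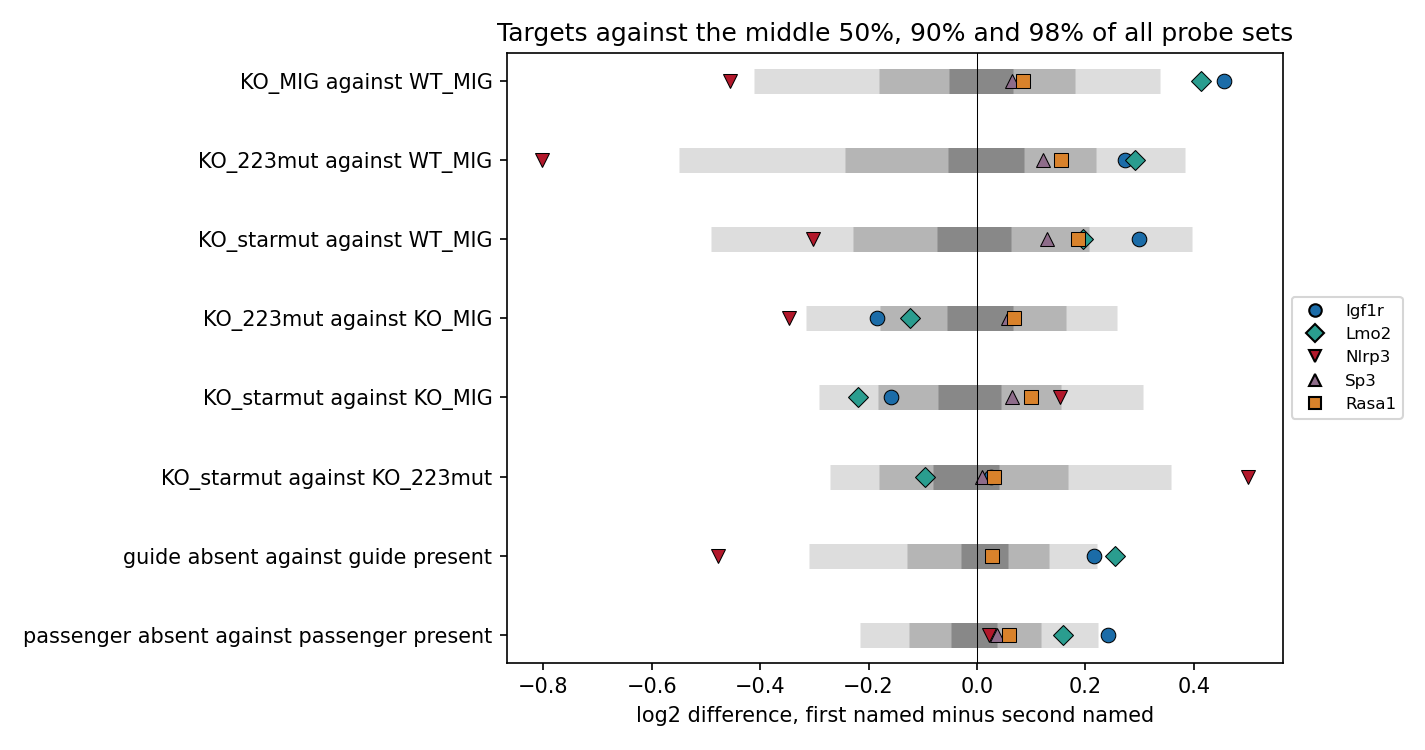
Log2 differences of the 5 genes (symbols) in each comparison on grey bars that span the middle 50% (dark), 90% (middle) and 98% (light) of all probe sets. Nlrp3 lies outside the 98% bar in KO_MIG against WT_MIG (-0.46), in KO_223mut against WT_MIG (-0.80) and KO_MIG (-0.35), in KO_starmut against KO_223mut (0.50) and in the comparison by guide strand (-0.48). Igf1r (0.46) and Lmo2 (0.41) lie outside it in KO_MIG against WT_MIG, Lmo2 by guide strand (0.25) and Igf1r by passenger strand (0.24), while Sp3 and Rasa1 lie within the 90% bars throughout.

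Grouping the arms by strand sets arrays without the guide strand (KO_MIG and KO_223mut) against those with it (KO_starmut and WT_MIG), as the group names are read. WT_MIG, the only wild-type arm, stands on the side with the strand here and in the grouping by passenger strand. Genotype and strand therefore cannot be fully told apart in either grouping. Nlrp3 was at -0.48 ± 0.07 (log2 difference, SE, 95% interval -0.63 to -0.33, limma adjusted p = 0.0969), not called, in a comparison with 6 calls over all probe sets (0.0208%). With the replicate number as a block its limma adjusted p was 0.0173, so that it was called, among 249 probe sets over all. This contrast is the mean of a pair of differences that share no array, KO_MIG minus WT_MIG at -0.46 and KO_223mut minus KO_starmut, the reverse of the 0.50 above. Both parts of it had about the same size for Nlrp3. The contrast is equally the mean of KO_223mut minus WT_MIG and the reverse of KO_starmut minus KO_MIG. In that split the parts were unlike in size for Nlrp3, with KO_223mut minus WT_MIG at -0.80. KO_starmut minus KO_MIG was 0.15, with overlapping arrays. For Lmo2 the contrast was 0.25 ± 0.06 (adjusted p = 0.343), with 0.41 for KO_MIG minus WT_MIG and -0.10 for KO_starmut minus KO_223mut. For Igf1r it was 0.22 ± 0.08 (adjusted p = 0.773), with 0.46 for KO_MIG minus WT_MIG and 0.03 for KO_starmut minus KO_223mut, within the spread of replicates (0.18 between arrays of replicate 2 and -0.13 between those of replicate 3). The sign of the vector difference turned when 1 array was left out for both Lmo2 (-0.203 to 0.011) and Igf1r (-0.116 to 0.167). In the other split Lmo2 gave 0.29 for KO_223mut minus WT_MIG and -0.22 for KO_starmut minus KO_MIG, and Igf1r gave 0.27 and -0.16. Which parts look alike thus depends on the split. By guide strand Sp3 and Rasa1 were each at 0.03 ± 0.05. By limma without the block 0 of 5 genes were called and 3 of 5 had an unadjusted p under 0.05 (5.87% of all probe sets). Itgam gave -0.53 and Cd68 -0.26 in the same comparison (limma adjusted p = 0.0969 and 0.149).

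The same grouping by the passenger strand sets KO_starmut and KO_MIG, which lack it, against KO_223mut and WT_MIG, which have it. Here Igf1r gave 0.24 ± 0.08 and Lmo2 0.16 ± 0.06 (log2 difference, SE, limma adjusted p = 1 in both), while Nlrp3 was at 0.02 ± 0.07, with a 95% interval of -0.13 to 0.17. For Nlrp3 that is the mean of opposite differences, -0.46 for KO_MIG minus WT_MIG and 0.50 for KO_starmut minus KO_223mut. Its value near 0 therefore does not mean that these arms were alike. Rasa1 was at 0.06 and Sp3 at 0.04. Limma called 0 of 5 genes, against 8 probe sets (0.0277%) over all (32 with the replicate number as a block, and again 0 of 5), and 2 of 5 had an unadjusted p under 0.05 (4.33% of all probe sets). For Igf1r the estimates by guide strand and by passenger strand were close, 0.22 and 0.24. Both come from the same arrays and take in KO_MIG minus WT_MIG (0.46) with the same sign. They differ only in the sign given to KO_starmut minus KO_223mut, which was 0.03 for Igf1r. Arrays with and without a strand overlapped for all 5 genes in both groupings (separation in 2.64% and 2.08% of all probe sets).

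**Figure D4:**
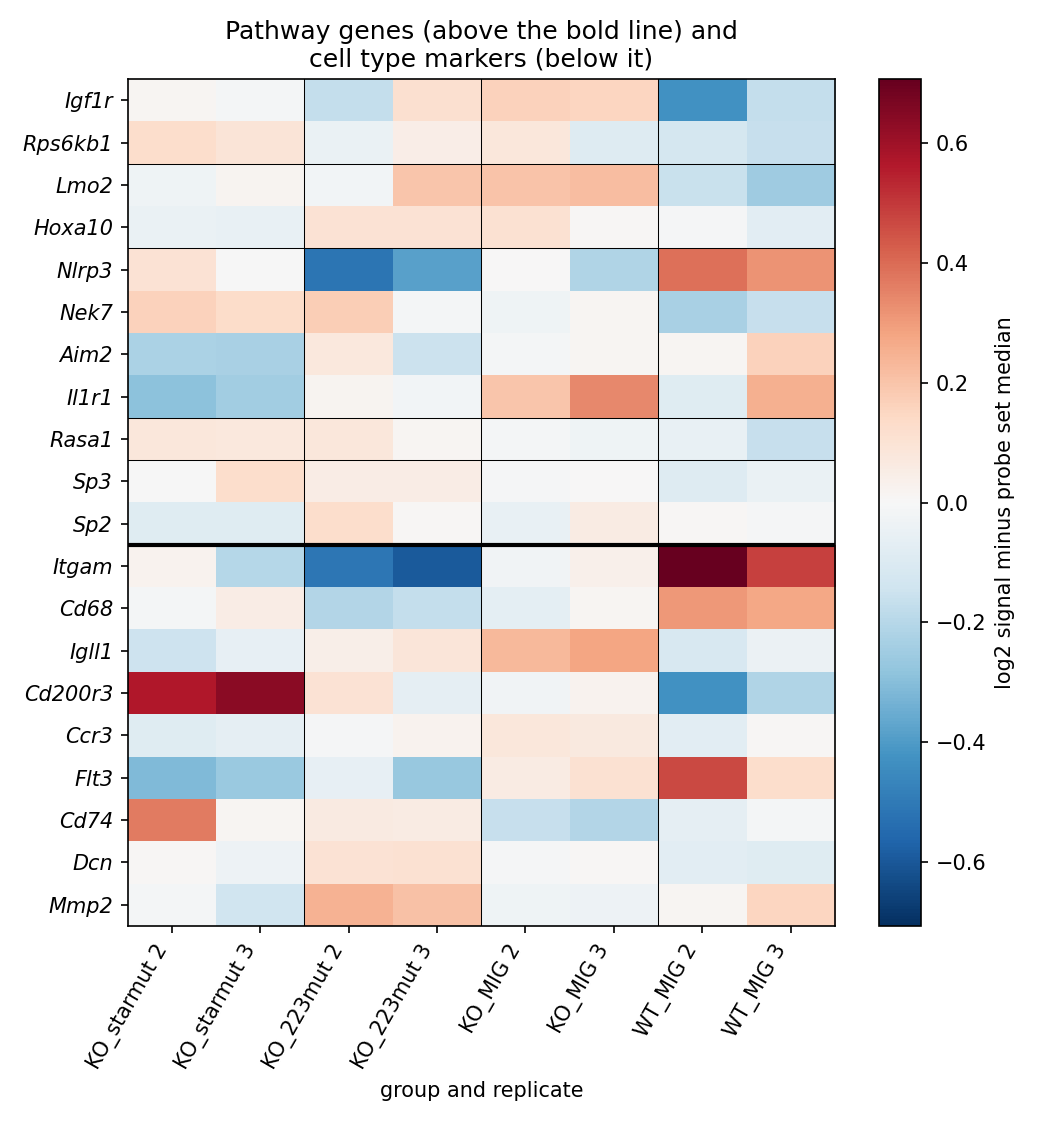
Log2 signal minus the probe set's median (colour) on each of the 8 arrays (columns, by group and replicate) for 20 genes of the lists that the authors' list names; above the bold line are pathway genes with the 5 targets, below it markers of cell types. Nlrp3, Itgam and Cd68 are highest in the WT_MIG arrays and lowest in the KO_223mut arrays.

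Likeness between genes was measured as the root mean square difference of the log2 values over the 8 arrays, against 1080 other probe sets with a single symbol in the authors' list. Nearest to Nlrp3 were Thbs1, the matrix glycoprotein thrombospondin 1 (0.101), Rgs1, which speeds GTP hydrolysis by G proteins (0.114), and Clec4d, a C-type lectin receptor of myeloid cells (0.143), where the median distance was 0.328. Thbs1 read 0.063 and -0.025 in KO_starmut, -0.34 and -0.32 in KO_223mut, 0.025 and -0.083 in KO_MIG, and 0.30 and 0.18 in WT_MIG, and so had the WT_MIG arrays highest and the KO_223mut arrays lowest, as Nlrp3 did. Near Igf1r were Fubp3, a nucleic acid binding protein (0.0864), and the succinate dehydrogenase subunit Sdhd (0.104), against a median of 0.209. Near Lmo2 were the lysosomal protease Ctsz (0.0915) and the zinc transporter Slc39a2 (0.0927), against 0.179. Among the 5 genes themselves Igf1r and Lmo2 were 0.122 apart, and Nlrp3 was 0.344 or more from each of the others. For Sp3 the nearest were the RNA helicase Ddx47 (0.0225), Ism2 (0.027) and AU019823 (0.0287), and for Rasa1 the exoribonuclease Eri1 (0.0341), Rsph1 (0.0348) and the pseudophosphatase Styx (0.0349). Sp3 and Rasa1 were 0.0571 apart, and genes that vary little lie close to each other by this measure whatever their pattern.

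Markers of other cell types that the marrow cultures could hold were named in part, and their values stand beside the differences above. In KO_starmut against WT_MIG the mast cell and basophil gene Cd200r3 was higher by 0.92 ± 0.09 (log2 difference, SE, limma adjusted p = 0.0123), the one called marker there. In KO_223mut against WT_MIG the calls among markers were Itgam and Cd68, both lower. The B-lineage gene Igll1 differed from WT_MIG by -0.03 in KO_starmut, 0.14 in KO_223mut and 0.33 in KO_MIG. Flt3 and Cd74, the named members of the dendritic list (2 of 6 genes), gave -0.58 and 0.23, -0.46 and 0.10, and -0.21 and -0.15 in the same arms. Their signs were thus opposite in KO_starmut and in KO_223mut. The eosinophil receptor Ccr3 lay between -0.04 and 0.11, and the fibroblast genes Dcn and Mmp2, markers of cells like the virus producers, between -0.16 and 0.19. The T and NK cell list and the erythroid and megakaryocyte list had 0 named genes. The part of these markers in the values of the 5 targets was not tested.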

How the data were processed

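RNA of 8 samples was measured on 1-colour arrays. Per the file headers, signals were summarised by RMA16 with annotation na31 on mouse build mm9. The authors deposited them as log2 values minus each probe set's median over all arrays (checked: every median is 0 within 7e-07). The authors' deposited list was filtered on raw signal (percentiles 20 to 100) and on a p-value under 0.05 (one-way Welch analysis of variance, uncorrected). It also holds the authors' fold change as a ratio, as a signed score and as a log2 difference, which were not used. The authors' group means equal those of the value table within 2.6e-07. Per the labels, RNA came from Trizol extraction.

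limma 3.58.1 in R 4.3.3 was fitted to all 28853 probe sets and 8 arrays, with 4 groups as terms and no block (4 residual and 3.67 prior degrees of freedom). Replicate numbers are shared by the groups, but the labels do not say that they pair the arrays; same-numbered arrays deviated together, with correlations of 0.36 to 0.533 in the 6 pairs of groups, so values with the number as a block stand beside the results they change. Tests were two-sided with Benjamini-Hochberg adjustment in each of 8 comparisons, and the code was tested on simulated data. No filter on dim probe sets was possible on centred values, and the number of arrays limits precision. The 9 blank cells, in KO_starmut replicate 3, touch none of the 5 genes.

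The 5 genes and the gene lists were chosen with earlier results of these data known. Named are the 5 genes, Mir223, the 3 nearest genes of each, and list genes with a single symbol (1081 probe sets); some genes this rule takes are not reported here. Alternatives were a replicate block, only the groups compared, array centring, robust or no moderation, adjustment within the authors' list, and leaving out each array.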

Additional observations from a re-analysis of the deposited data

How the results depend on the processing

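The Nlrp3 call in KO_223mut against WT_MIG held in 9 of 14 alternatives (limma adjusted p from 0.000996 to 0.198). It was lost without variance moderation, where 0 of the 5 genes were called, and in 4 of the 8 fits that left out 1 array, which assume that a lone array varies like the others and have fewer degrees of freedom (0 to 1 genes called). With the replicate block 1 of the 5 genes, Nlrp3, was called in the comparison by guide strand (-0.478, adjusted p = 0.0173), and no other call among the 5 genes changed. Adjusting only over the authors' list, which was selected on these arrays, gave 3 called genes in KO_MIG against WT_MIG (Igf1r, Lmo2 and Nlrp3), 2 in KO_223mut against WT_MIG and 2 by guide strand (Lmo2 and Nlrp3 in each). Centring each array and robust moderation changed no call or direction among the 5 genes.

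Counts over all probe sets moved more. With the replicate block they were 277 in KO_MIG, 732 in KO_223mut and 488 in KO_starmut against WT_MIG (39, 208 and 71 without it), 1 in KO_starmut against KO_223mut, 249 by guide strand and 32 by passenger strand. With only the 4 arrays compared they were 5, 112 and 16 against WT_MIG. Without moderation they were 1 in each of these 3 comparisons and 1 by either strand. Within the authors' list they were 150, 338 and 304 against WT_MIG, 26 in KO_starmut against KO_MIG, 12 in KO_starmut against KO_223mut, 103 by guide and 67 by passenger strand. Leaving out 1 array gave 4 to 22 in KO_MIG, 8 to 153 in KO_223mut and 19 to 63 in KO_starmut against WT_MIG, and 3 to 9 by either strand.

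Uncalled values near 0 changed sign when 1 array was left out. In KO_starmut against KO_223mut, Igf1r ranged from -0.116 to 0.167, Lmo2 from -0.203 to 0.011, Sp3 from -0.0532 to 0.07 and Rasa1 from -0.000584 to 0.0626. By guide strand Sp3 ranged from -0.00252 to 0.0591, and by passenger strand Nlrp3 from -0.0314 to 0.0756. The causes were not tested.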
